A study of Mus musculus with 137 samples.

Results

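Embryos treated with SR1848 were compared with control-like embryos that carry no GFP signal in experiment 2 of a study of single mouse 2-cell embryos. The comparison holds 34 libraries: the 24 embryos labelled SR1848 in that experiment, and 10 control-like embryos. Over the whole series the labels give 19 DMSO, 17 SR1848 and 27 SR1848_NR5A2OE embryos in experiment 1, and 10, 24 and 40 in experiment 2. The control-like embryos were selected on 2 measured values, GFP under 1 CPM (counts per 1000000 of the library total) and an Nr5a2 level near that of DMSO 9 and 10. The control-like embryos are DMSO 9 and DMSO 10, used as labelled, and SR1848_NR5A2OE 1 to 8, which were used against their label. Those 8 are labelled as having received both the inhibitor and NR5A2 mRNA, but the GFP entries of the count table gave at most 0.452 CPM in them and their Nr5a2 level was near that of DMSO 9 and 10. All libraries come from the B6129F1 cross, 1 embryo each, and were made with SmartSeq2 from polyA RNA by oligo-dT. The zygotes were taken at 5 hours after fertilization and kept in KSOM medium in wet chambers without oil. From 6 hours the medium held 10 µM SR1848, a compound known to inhibit NR5A2, or 0.1% of its solvent DMSO. By its label the NR5A2OE group had SR1848 and NR5A2 mRNA at 500 ng per µl. The labels do not say which embryos share parents or a culture drop, so every p-value measures the spread between embryos only. Of the 10 controls only DMSO 9 and 10 carry a control's label.

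In the mouse, the egg's own mRNAs carry the embryo through the first division and are then destroyed while the embryo's genome is switched on, a step called zygotic genome activation that peaks at the late 2-cell stage. Genes switched on then include families active almost only at that stage (Zscan4, Tcstv, Usp17l, Trim43, Tdpoz), the Obox homeobox genes, and large sets that build ribosomes, spliceosomes and proteasomes. NR5A2 is an orphan nuclear receptor that binds DNA as a monomer at an extended half-site, and the series title names it as a factor of this activation.

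The values that chose the members are given as a description. GFP reached 0.403 CPM in DMSO 10, 0.115 CPM in DMSO 9, and at most 0.452 CPM in SR1848_NR5A2OE 1 to 8. In the 24 SR1848 embryos GFP ran from 0 to 1.22 CPM. Nr5a2 itself stood at 83.7 CPM in DMSO 9 and 104 CPM in DMSO 10, and ran from 81.6 to 155 CPM (median 108) in the 8. The SR1848 embryos held 3.90 to 29.5 CPM of Nr5a2, with a median of 17.3, and all 24 lay below all 10 controls. Just outside the rule, SR1848_NR5A2OE 26 had 0.741 CPM of GFP but only 15.8 CPM of Nr5a2, and SR1848_NR5A2OE 21 had 2.04 CPM of GFP and 6.75 CPM of Nr5a2. Libraries DMSO 1 to 8 of the same experiment, which are not used here, held 47.4 to 7075 CPM of GFP.

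The 8 embryos used against their label were set against DMSO 9 and 10 across 14181 genes. With edgeR's quasi-likelihood test and Benjamini-Hochberg adjustment, 7 genes passed 0.05 (0.0494%). Rangap1 was lower in the 8 (0.00705% of genes tested), and Pam, Kat6a, Dock10, Srrm2, Lrtm1 and Gm47924 were higher (0.0423%). DESeq2 called 172 higher and 84 lower, and 1456 genes had an unadjusted p under 0.05 in edgeR. With 2 embryos in an arm, few calls do not show that the 2 sets are alike. An entry for an Nr5a2 gene sequence, kept apart from the gene, did separate them. It stood at 60.1 and 64.0 CPM in DMSO 9 and 10 and had a median of 133.7 CPM in the 8, of which the highest was at 157 CPM and none overlapped DMSO 9 or 10. This rests on 2 embryos. In the 16 DMSO embryos of experiment 1 used below, the entry ran from 28.3 to 176 CPM, a range that holds both sets. In the 24 SR1848 embryos it ran from 18.8 to 84.4 CPM.

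Library totals ran from 4389901 to 8707715 counts in the controls and from 3762220 to 7888072 in the SR1848 embryos, with medians of 4918159 and 4979581. Each of the 10 markers of the oocyte and 2-cell stage was detected in at least 1 library, but Usp17le, Zscan4c and Tdpoz4 were at 0 in some SR1848 embryos. The 10 summed to 630 to 848 CPM in the controls and 1051 to 2116 CPM under SR1848. Here and below, CPM of genes is scaled by edgeR's TMM factors. Markers of cumulus and granulosa cells summed to 64.6 to 179 CPM in the controls (median 76.9) and 13.1 to 225 CPM under SR1848 (median 25.8), and Ptx3 was at 0 in all 34 libraries. As a share of counts 23 of 24 SR1848 embryos lay below all controls, and Inha reached 165 CPM in 1 SR1848 embryo against a median of 0. The highest markers of this list in the controls were Amhr2 (medians of 48.5 and 0.377 CPM) and Kitl (24.9 and 9.01). Col4a2 went the other way (1.41 and 5.96). Of the 5 tested 2 rose and 2 fell, beside 39.8% and 38.4% of all genes tested. Of the 16 sperm and spermatid markers 5 were at 0 in all 34, Tnp1, Acr and Prm3 among them. Their sum was 98.2 to 208 CPM in the controls and 391 to 733 CPM under SR1848, of which Odf2, a centrosome gene that oocytes also express, gave 387 to 730 CPM. Of the 15 markers of blood, skin and epithelium 5 were at 0 throughout, and the sums were 75.1 to 173 and 62.4 to 279 CPM. The part of these marker levels in the results was not tested.

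SR1848 changed the abundance of most genes tested. Of 12892 genes, 5136 were higher in the SR1848 embryos (39.8%) and 4948 were lower (38.4%) by the same test. For 1638 genes (12.7%) every SR1848 embryo lay above every control, and for 2252 genes (17.5%) every SR1848 embryo lay below. The decreases were larger: the median log2 fold change was -2.28 among lower genes and 1.76 among higher genes, 794 genes were lower by 4 or more on the log2 scale and 132 were higher by as much. These are shares of each library. When libraries were scaled to the summed counts of the oocyte and maternal-effect list, the split became 972 higher and 9258 lower, and the median over all genes moved from 0.08 to -1.85. The median moved to -0.19 with relative log expression factors and to -0.11 with total counts.

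Against DMSO 9 and 10 alone, which follows the labels, 3849 of 15617 genes were higher (24.6%) and 3961 were lower (25.4%), or 779 and 8625 with the maternal scaling. Of the 10084 genes called with all 10 controls, 9997 had the same sign against DMSO 9 and 10. For 7326 of them the call was also made with that sign, and for 1 it was made with the opposite sign. Both comparisons use the same SR1848 embryos, so their likeness is not independent support.

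The genes with the deepest losses were nearly absent from the inhibited embryos. Tead4, a TEAD transcription factor of the trophectoderm (chromosome 6, 128224288 to 128300823 on GRCm38), stood at 86.0 CPM in DMSO 9 and 122 CPM in DMSO 10. It ran from 36.0 to 122 CPM over all 10 controls (median 58.9) and from 0 to 0.945 CPM in the SR1848 embryos. It had no count in 21 of the 24. The log2 fold change was -9.46 ± 0.42 (SE, adjusted p = 8.13e-21). Sumo2, a small modifier joined to nuclear proteins (chromosome 11, 115523102 to 115536276), ran from 562 to 729 CPM in the controls, where DMSO 9 had 635 and DMSO 10 had 618. Under SR1848 it ran from 0 to 23.2 CPM with a median of 2.17, and the log2 fold change was -7.48 ± 0.43 (SE, adjusted p = 5.92e-18). No SR1848 embryo reached the range of the controls for either gene.

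The same pattern held for 7 more of the genes with the largest decreases. Exoc3l2, a relative of an exocyst subunit, had a median of 1048 CPM in the controls and 1.60 CPM under SR1848. Timd2, a cell-surface receptor, went from 902 to 3.62 CPM and Npl, a sialic acid lyase, from 426 to 0.924 CPM. Gins3, a subunit of the replicative helicase's GINS complex, had medians of 195 and 0.215 CPM. Hsd17b6, a steroid and retinol dehydrogenase, Gorasp1, a Golgi stacking protein, and Stmn3, a stathmin that binds tubulin, each had a median of 0 CPM under SR1848 against 48.4, 76.9 and 74.8 CPM in the controls. None of these 7 genes had an SR1848 embryo inside the range of the controls, and their log2 fold changes ran from -8.84 for Hsd17b6 to -7.38 for Stmn3.

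**Figure D1:**
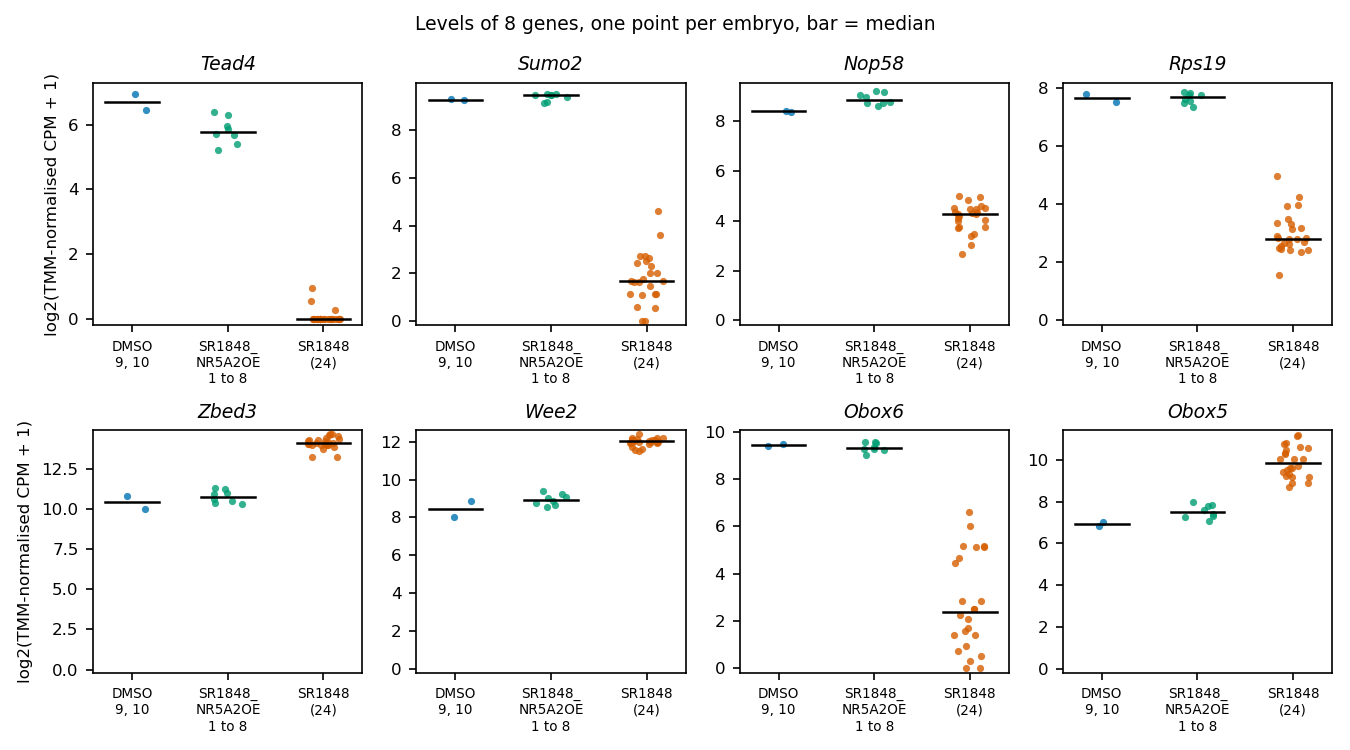
Levels of 8 genes as log2(TMM-normalised CPM + 1), 1 point per embryo, with DMSO 9 and 10, SR1848_NR5A2OE 1 to 8 and the 24 SR1848 embryos on the horizontal axis and a bar at each median. Tead4 had no count in 21 of 24 SR1848 embryos, and none of the 8 genes has an SR1848 embryo inside the range of the 10 controls.

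Ribosome building was the most uniform loss among the lists. Of 81 genes of the nucleolus and rRNA processing, 78 fell and 1 rose, beside 38.4% and 39.8% over all genes. The median log2 fold change was -3.06 against 0.08 over all genes. In 63 of the 81 every SR1848 embryo lay below every control, beside 17.5% of all genes. Nop58, a core protein of the snoRNPs that guide rRNA modification, was at 341 CPM in DMSO 9, 332 CPM in DMSO 10 and 332 to 590 CPM over the controls (median 428). Under SR1848 it ran from 5.38 to 30.5 CPM (median 18.2, log2 fold change -4.70 ± 0.18 SE, adjusted p = 2.28e-22). Pno1, a factor of the small subunit's assembly, fell by 5.22 on the log2 scale and Imp4, of the early processing complex, fell by 2.60. Npm3 was the 1 gene that rose (medians of 1.03 and 3.53 CPM), and Fbl and Pinx1 did not pass the test. The list took 1.64 to 1.99% of counts in each control and 0.218 to 0.408% in each SR1848 embryo.

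Messages for the ribosome itself behaved alike. Of 79 cytosolic ribosomal protein genes, 73 fell and 1 rose, beside 38.4% and 39.8% over all genes. Their median log2 fold change was -2.60, and 55 were lower without overlap, beside 17.5% of all genes. Rps19 was at 220 CPM in DMSO 9, 182 CPM in DMSO 10 and 161 to 230 CPM over the controls, against 1.93 to 29.8 CPM under SR1848 (log2 fold change -4.63 ± 0.25 SE, adjusted p = 1.87e-18). Rpl37a had medians of 163 and 12.8 CPM, and Rps24 227 and 23.7 CPM. Rpl17 rose by 1.27 on the log2 scale, while Rps2 (medians of 173 and 191 CPM), Rps12 (21.1 and 24.7), Rpl3, Rpl12 and Rplp0 did not pass. Many ribosomal protein genes have near-identical processed copies, so kallisto's division of reads between them makes these estimates uncertain. Of 53 translation factors and tRNA synthetases 35 fell and 7 rose, among them Eif3a (638 to 21.9 CPM in medians), Eif2s1 (424 to 27.1) and Eif3g (172 to 7.49). Against DMSO 9 and 10 alone 75 of 81, 66 of 79 and 36 of 54 were lower in these 3 lists, beside 25.4% of all genes.

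**Figure D2:**
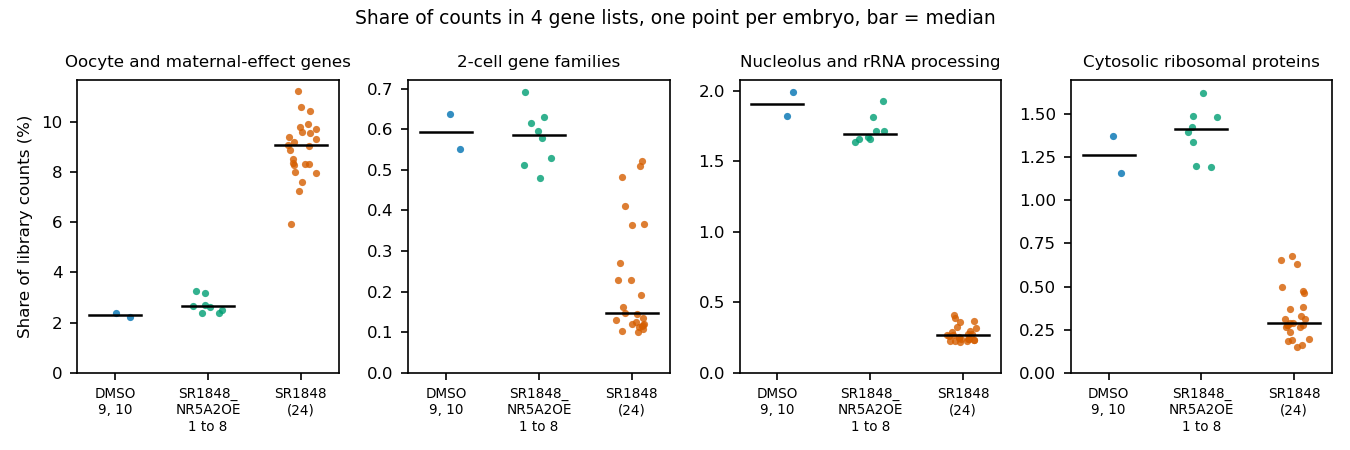
Share of library counts in percent taken by 4 gene lists, 1 point per embryo, for DMSO 9 and 10, SR1848_NR5A2OE 1 to 8 and 24 SR1848 embryos, with a bar at each median. All 24 SR1848 embryos lie above the controls for the maternal list and below them for the nucleolar and ribosomal lists, and 21 of 24 lie below them for the 2-cell families.

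Machinery of RNA and protein handling was lower across most of its members. The shares over all genes, to be set beside each list here, were 38.4% lower and 39.8% higher. The spliceosome list had 48 of 57 genes lower and 3 higher (median log2 fold change -1.71). Snrpa1, a U2 snRNP protein, went from a control median of 214 CPM to 5.95 CPM, and Srsf5 and Snrpd1 from 283 and 126 to 33.4 and 15.5 CPM. Of 72 genes of RNA polymerase II, its general factors and elongation, 48 fell and 14 rose. The subunits went both ways: Polr2e fell by 2.94 ± 0.11 (SE) on the log2 scale while Polr2c rose by 1.61 ± 0.09, from 510 to 731 CPM in the controls to 1209 to 2411 CPM, a direction that flipped to -0.35 with the maternal scaling. Tbpl2, the oocyte's own TBP relative, had medians of 1.09 and 13.2 CPM. Of 39 proteasome genes 29 fell and 8 rose, and Psma6 went from 263 to 13.9 CPM in medians.

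In the SUMO list 10 of 22 genes fell and 8 rose, shares near the 38.4% and 39.8% of all genes. Beside Sumo2, Sae1 of the activating enzyme fell (306 to 32.1 CPM in medians). Of 29 genes of lysosomal proteases and autophagy 20 fell and 7 rose, and Ctsb, cathepsin B, went from 503 to 896 CPM in the controls to 0 to 28.6 CPM. The heat shock and unfolded protein list had 29 of 44 genes lower and 6 higher, with Pdia3, an ER disulfide isomerase, at medians of 337 and 17.3 CPM.

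Most nuclear-encoded mitochondrial genes were lower, beside 38.4% lower and 39.8% higher over all genes, while those encoded in the mitochondrion were not lower. Of 62 nuclear-encoded genes of oxidative phosphorylation 45 fell and 4 rose, and of 67 genes of mitochondrial import and the mitochondrial ribosome 50 fell and 7 rose. Mrpl20 went from 122 to 3.52 CPM and Timm17a from 368 to 34.0 CPM in medians. Against DMSO 9 and 10 alone 32 of 63 and 42 of 67 were lower, beside 25.4% of all genes. None of the 13 mRNAs encoded in the mitochondrion fell, 7 did not pass and 6 rose, a share near the 39.8% of all genes. Their summed share of counts did not pass the permutation test (p = 0.275). mt-Co3 was at 2041 CPM in DMSO 9, 3096 CPM in DMSO 10 and 2041 to 3830 CPM over the controls, against 2993 to 7646 CPM (log2 fold change 0.96 ± 0.14 SE, adjusted p = 1.09e-07), and the groups overlapped. This direction depended on scaling: 3 rose and 1 fell with relative log expression, and all 13 were lower with the maternal scaling.

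**Figure D3:**
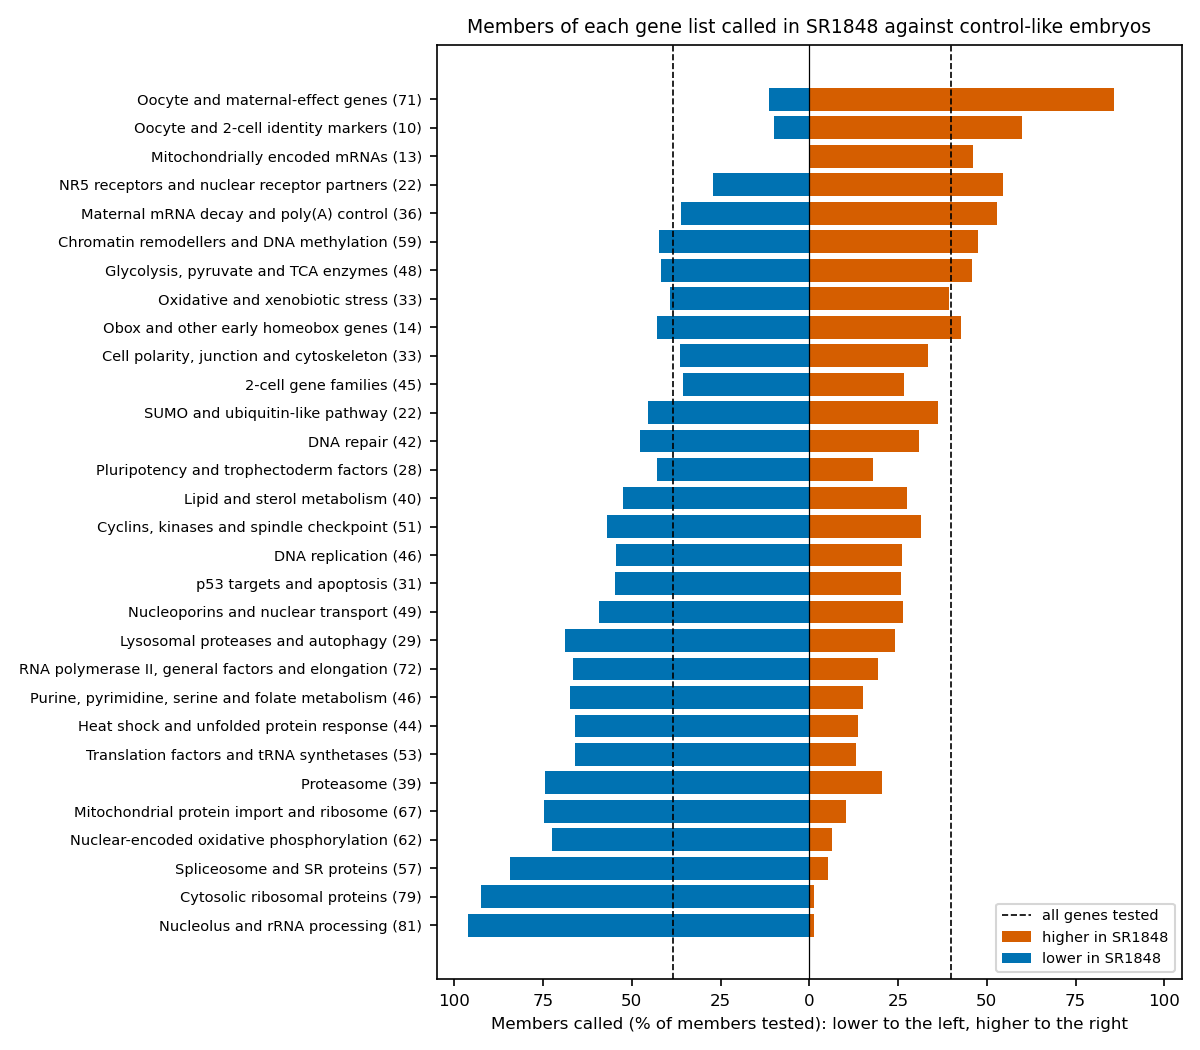
Percent of tested members of each of 30 gene lists called higher (right) or lower (left) in SR1848 against control-like embryos, with the number tested in brackets and dashed lines at the share over all genes (39.8% and 38.4%). The nucleolar list has 78 of 81 members lower and the maternal list 61 of 71 higher; with scaling to the maternal list these become 80 of 81 lower, and 23 higher with 34 lower.

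The 2-cell families did not move as a block. Of 45 tested members 16 fell, 12 rose and 17 did not pass, with a median log2 fold change of 0.01. Over all genes 38.4% fell and 39.8% rose, so the share lower was near that of all genes. Lower without overlap were 10 of the 45, beside 17.5% of all genes. Trim43a, Trim43b and Trim43c, Tdpoz2, Pramel6 and Pramel7, Ubtfl1, Slfn4, Fbxo15 and Sp110 were lower with no overlap between embryos. Trim43c stood at 444 CPM in DMSO 9, 731 CPM in DMSO 10 and 444 to 731 CPM over the controls, against 0 to 14.4 CPM (log2 fold change -6.39 ± 0.33 SE, adjusted p = 3.71e-19). Fbxo15, an F-box gene active in pluripotent cells, went from 516 to 934 CPM to 24.3 to 112 CPM.

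Members of the Tcstv, Usp17l and Zscan4 families went the other way or did not pass. Tcstv1 was the 1 member higher without overlap, at 2.77 to 17.9 CPM in the controls and 27.7 to 491 CPM under SR1848 (log2 fold change 3.85, adjusted p = 3.25e-08). Zscan4f, whose family guards telomeres in 2-cell embryos, ran from 3.75 to 42.3 CPM in the controls and from 15.1 to 421 CPM under SR1848 (log2 fold change 2.50, adjusted p = 2.61e-05), and the groups overlapped. Zscan4a (medians of 31.1 and 14.6 CPM), Zscan4d (26.5 and 21.1) and Zfp352 (68.9 and 44.8) did not pass. Copies of these families are nearly identical, so reads may be split wrongly between them. Against DMSO 9 and 10 alone 14 were lower and 6 higher, beside 25.4% and 24.6% of all genes. Of 41 tested in experiment 1, 25 were lower and 8 higher, beside 43.6% and 37.8% of all genes. With the maternal scaling 27 of 45 were lower and 1 higher, beside 9258 and 972 of all 12892 genes. The summed share of the list was 0.480 to 0.692% of counts in the controls and 0.0997 to 0.521% under SR1848 (medians 0.587 and 0.146%).

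Homeobox genes went in both directions. Of 14 tested, 6 rose and 6 fell, shares near the 39.8% and 38.4% of all genes. Without overlap 6 were higher and 4 lower, beside 12.7% and 17.5% of all genes. Obox6 went from 526 to 774 CPM in the controls to 0 to 97.6 CPM under SR1848 (log2 fold change -5.39, adjusted p = 9.84e-10). Obox8, Crxos and Obox3 were lower too without overlap, at -5.67, -5.87 and -3.45. Obox1, Obox2, Obox5 and Obox7 were higher without overlap: Obox5 ran from 114 to 255 CPM in the controls and from 421 to 2360 CPM under SR1848 (log2 fold change 2.62, adjusted p = 6.72e-11). The oocyte regulators Nobox and Lhx8 rose by 3.95 and 3.19. With the maternal scaling 5 of these 14 genes were higher and 8 lower, in place of 6 and 6. That scaling gave 972 higher and 9258 lower over all 12892 genes.

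Among factors of pluripotency and trophectoderm 12 of 28 fell and 5 rose, with a median of -0.27, so that the share lower was near the 38.4% of all genes. The members that fell included, besides Tead4, Dppa4 (407 to 3.88 CPM in medians), Fgf4 (76.3 to 0.452), Klf5 (51.6 to 3.13), Zfp42 (36.6 to 0.403), Dppa5a (444 to 52.5) and Dppa2 (776 to 124), all without overlap. Pou5f1, which encodes OCT4, was higher, at 10.5 to 21.8 CPM in the controls and 69.8 to 168 CPM under SR1848 (log2 fold change 2.88 ± 0.15 SE, adjusted p = 1.15e-18). Gata3 rose as well, from a median of 2.46 to 17.6 CPM, while Klf17 (1347 and 1442 CPM) and Nanog (7.00 and 4.49 CPM) did not pass.

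Among nuclear receptors and their partners 12 of 22 rose and 6 fell, a count that includes Nr5a2, beside 39.8% and 38.4% over all genes. Nr2c2, the orphan receptor TR4, fell from 236 to 413 CPM to 1.52 to 25.1 CPM, and Rarg, a retinoic acid receptor, from 24.3 to 0.626 CPM in medians. Ccne1, cyclin E1, which NR5A2 is known to induce in other tissues, fell from 478 to 36.1 CPM in medians. Pou5f1, given above and also in this list, went the other way, higher by 2.88 on the log2 scale without overlap. Nr2c1 (TR2), Rara and the coactivator Ncoa2 were higher, at log2 fold changes of 3.12, 1.72 and 1.06. Cyp7a1, the bile acid enzyme that NR5A2 controls in liver, was barely detected, at medians of 0 and 4.93 CPM. With relative log expression 8 were higher and 6 lower, with total counts 9 and 6, with the maternal scaling 2 and 14, and against DMSO 9 and 10 alone 7 and 4 of 25. The excess of higher genes in this list thus rests on the scaling and the controls. Unlike its median, the list's summed share was lower in all 24 SR1848 embryos (0.0999 to 0.161% against 0.166 to 0.198%). That sum includes Nr5a2, with medians of 97.1 CPM in the controls and 17.65 CPM under SR1848. The level of Nr5a2 helped to choose the controls, so this separation is a description and not independent support. The share without Nr5a2 was not computed.

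Stored maternal messages made up more of each inhibited library. Of 71 tested oocyte and maternal-effect genes 61 rose and 8 fell, beside 39.8% and 38.4% over all genes. The median log2 fold change was 1.59, and 34 were higher without overlap, beside 12.7% of all genes. The list took 2.23 to 3.26% of counts in the controls and 5.92 to 11.2% under SR1848. Zbed3, a maternal factor (chromosome 13, 95323612 to 95337841), stood at 1030 CPM in DMSO 9 and 1807 CPM in DMSO 10. It ran from 1030 to 2554 CPM over the controls and from 9503 to 26080 CPM under SR1848 (log2 fold change 3.38 ± 0.17 SE, adjusted p = 1.08e-19). Oog2 had medians of 98.5 and 489 CPM, and Zp2, of the zona pellucida, 46.7 and 230 CPM. With scaling to this list's own sum 23 members were higher and 34 lower, beside 972 and 9258 of all 12892 genes.

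The 8 maternal genes that fell were Trim28, Smarca4, Zar1l, Slbp, Dppa3, Zp3, Ccnb3 and Dnmt1. Trim28, a corepressor that guards imprints, fell the most of them (121 to 11.6 CPM in medians), and Dppa3 (Stella) went from 2558 to 959 CPM. In the list of maternal mRNA decay and poly(A) control 19 of 36 rose and 13 fell, beside 39.8% and 38.4% over all genes. With the maternal scaling 3 rose and 25 fell, beside 972 and 9258 of all 12892 genes. Ythdf2, a reader of m6A that promotes decay of maternal mRNA, went from 458 to 830 CPM to 15.6 to 74.0 CPM (log2 fold change -3.57 ± 0.14 SE, adjusted p = 2.28e-22), and Papola, a poly(A) polymerase, from 434 to 562 CPM to 33.0 to 172 CPM. Dcp1a, of the decapping complex, rose from 62.8 to 165 CPM to 460 to 830 CPM.

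Most of the 10 largest increases started from low control levels. Naip1, a sensor of the inflammasome, ran from 0 to 3.21 CPM in the controls and from 13.9 to 119 CPM under SR1848 (log2 fold change 5.20 ± 0.50 SE, adjusted p = 1.07e-11). Car9, a carbonic anhydrase, was at 4.67 CPM in DMSO 9, 15.7 CPM in DMSO 10 and 206 to 430 CPM under SR1848. Pkd2l2, of the polycystin channels, was abundant, at 73.9 to 377 CPM in the controls and 2326 to 6950 CPM under SR1848. Nr2e1, the orphan receptor tailless (medians of 1.49 and 92.5 CPM), Il12rb2, Samd10, Psenen, Nckap1l and Grm4 had no overlap either, and Psg17 did overlap (0 to 5.00 and 3.58 to 93.5 CPM).

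Cell cycle, replication and repair lists each held genes in both directions. Of 51 cyclins, kinases and checkpoint genes 29 fell and 16 rose, of 46 replication genes 25 fell and 12 rose, and of 42 repair genes 20 fell and 13 rose. Over all genes 38.4% fell and 39.8% rose, and the repair list was the nearest of the lists to these shares. Wee2, the oocyte kinase that inhibits CDK1, rose from 255 to 674 CPM to 2936 to 5335 CPM (log2 fold change 3.09 ± 0.12 SE, adjusted p = 3.13e-22). Cdca8, of the chromosomal passenger complex, went from 566 to 746 CPM to 38.1 to 143 CPM. The checkpoint kinases parted: Chek2 went from 117 to 268 CPM to 3.89 to 14.7 CPM and Chek1 from 87.2 to 194 CPM to 360 to 779 CPM. Cdc45 fell by 2.58 on the log2 scale while Orc5 rose by 2.45.

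Of 31 p53 targets and apoptosis genes 17 fell and 8 rose, beside 38.4% and 39.8% over all genes, with a median of -1.13. Mdm2, the ligase for p53, went from 252 to 47.1 CPM and Sesn2 from 321 to 12.9 CPM in medians, while Bcl2l10, an oocyte survival factor, went from 118 to 922 CPM. The summed share of this list moved against its median, from 0.468 to 0.721% of counts in the controls to 0.623 to 0.945% under SR1848. Mdm4, a relative of Mdm2, alone had medians of 3678 and 5896 CPM.

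Metabolic lists also differed among themselves. In the purine, pyrimidine, serine and folate list 31 of 46 genes fell and 7 rose, beside 38.4% and 39.8% over all genes. Mat2a, which makes S-adenosylmethionine, went from 320 to 991 CPM to 1.72 to 21.3 CPM, and Phgdh, the first enzyme of serine synthesis, from 166 to 10.6 CPM in medians, while Mthfd2 of the mitochondrial folate cycle rose from 108 to 171 CPM to 418 to 776 CPM. Of 48 genes of glycolysis, pyruvate and TCA enzymes 22 rose and 20 fell, shares near those of all genes, or 20 and 23 with relative log expression. G6pdx, the entry enzyme of the pentose phosphate pathway, rose from 63.9 to 158 CPM to 747 to 2092 CPM, and Mdh2 fell from 316 to 518 CPM to 18.9 to 77.8 CPM. In lipid and sterol metabolism 21 of 40 fell and 11 rose, with Elovl6, a fatty acid elongase, at 73.5 to 307 CPM and 0 to 13.6 CPM. The lists of chromatin remodellers (28 rose, 25 fell of 59; 23 and 29 with relative log expression), oxidative stress (13 and 13 of 33) and polarity (11 and 12 of 33) were close to the shares of all genes. Nucleoporins and transport had 29 of 49 lower and 13 higher.

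Promoter windows were searched for the extended half-site in its forms TCAAGGTCA and TCAAGGCCA, on both strands, from 250 bases before to 50 after the gene start (RefSeq, GRCm38.p6; the 2 forms cannot match at 1 place). Windows were matched for 9594 tested genes, and 78 of them (0.813%) held a match, as did 331 of all 32851 windows (1.01%). Among genes lower without overlap 21 of 1736 held one (1.21%), and among genes higher without overlap 6 of 1237 (0.485%). TCAAGGTCA was in 10 windows of the first set (0.576%) and in 0 of the second, against 32 of all 9594 (0.334%) and 10 of 2017 genes that were not called (0.496%). The share in the first set is thus close to that of genes not called. The stretches below are shown to let the site be read in its context in genes that fell without overlap. They were chosen after the values were seen, are written 5′ to 3′ on the gene's strand, and have the match in capitals (TGACCTTGA is the match on the other strand).
Gpr161: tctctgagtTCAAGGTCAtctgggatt
I0C0044D17Rik: tctccaaatTCAAGGTCAtctgggatt
Bhmt: gaccccagaTCAAGGTCAgaggcctgc
Psmc3ip: gggtttagcTCAAGGTCAcgagtgctc
Psap: ttcggcgccTGACCTTGAtttaatcac
Elovl6: agtatgaccTCAAGGCCActtcctccc

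These stretches lie at chr1:165295674-165295700 (plus strand), chr4:98823890-98823916 (minus), chr13:93637816-93637842 (minus), chr11:101095656-101095682 (minus), chr10:60277470-60277496 (plus) and chr3:129532189-129532215 (plus), in the order shown. Those of Gpr161 and I0C0044D17Rik share a run of 19 bases. Gpr161, a ciliary receptor, went from 32.0 to 97.1 CPM to 0 to 3.78 CPM, Bhmt, which remethylates homocysteine, from 44.3 to 166 CPM to 0 to 5.64 CPM, and Psmc3ip, a meiotic recombination factor, from 34.0 to 84.3 CPM to 0 to 5.07 CPM. Psap, the saposin precursor, went from 24.1 to 58.0 CPM to 0 to 17.3 CPM. A match of letters is not evidence of binding.

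Over all genes tested, the median SD of log2 CPM was 0.79 in the 24 inhibited embryos and 0.60 in the controls. Many genes were near 0 under SR1848, where this SD is inflated, and the part of low counts was not tested. Single genes went both ways: under SR1848 and in the controls the SD was 0.61 and 0.30 for Nop58 but 0.21 and 0.40 for Wee2. The 10 most variable abundant genes in the 24 were Gli3, Tcstv3, Mt1, Mad2l1bp, Bambi, Usp17lb, Cphx3, Zfp352, Usp17lc and Chchd2. Tcstv3 ran from 1.49 to 565 CPM, highest in SR1848 11 (565), SR1848 15 (408) and SR1848 13 (299), against 6.03 to 32.4 CPM in the controls. Zscan4c reached 629 CPM in SR1848 18, against a median of 10.7. Mad2l1bp, a checkpoint silencer, ran from 1.94 to 335 CPM and stayed below the controls (890 to 1318 CPM) in every embryo, and its highest value was in SR1848 15. Gli3, a Hedgehog transcription factor, followed another order, with 588 CPM in SR1848 19 and 402 in SR1848 20.

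Across the 24, embryos with a larger share of 2-cell transcripts also had a larger share of ribosomal protein transcripts. On the log2 scale Pearson's r was 0.83 and Spearman's rho 0.84 (permutation p = 1e-05 for both, the smallest the resamples can give; adjusted p = 2e-05 and 4e-05 over 4 relations). Without SR1848 13 and 15, the farthest in 2-cell share, r was 0.79. Both are shares of the same library. The 2-cell share also went with the number of genes detected at equal depth (r = 0.82, rho = 0.72, adjusted permutation p = 2e-05 and 0.00032). The relation did not pass the test for the maternal share (r = -0.31, permutation p = 0.137) or the library total (r = 0.06, permutation p = 0.785). Even SR1848 15, at 0.521% for the 2-cell list, stayed below all controls in ribosomal protein share, at 0.678% against 1.16 to 1.63%.

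**Figure D4:**
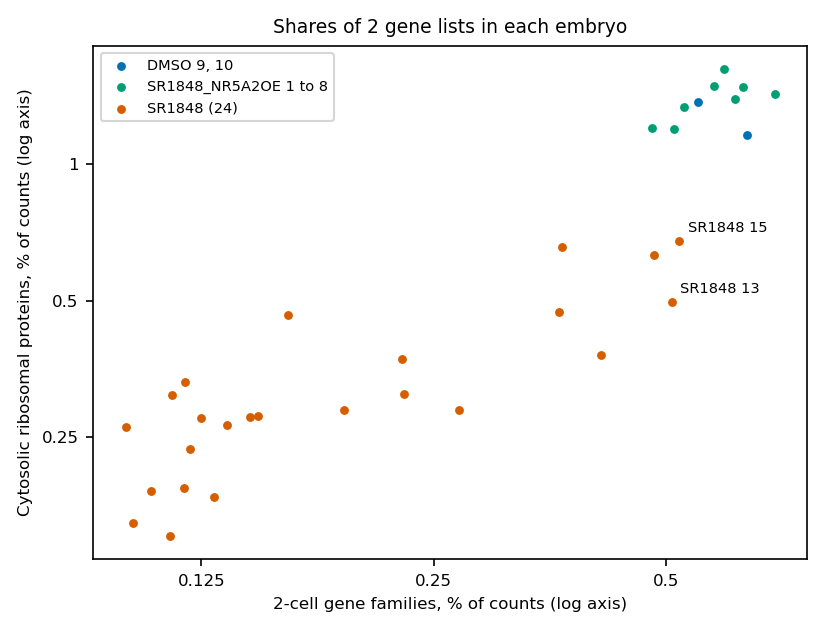
Share of counts in the 2-cell families (horizontal) against the share in cytosolic ribosomal proteins (vertical), both in percent on log axes, 1 point per embryo. The SR1848 embryos spread from 0.0997 to 0.521% on the horizontal axis (r = 0.83 on the log2 scale) and all lie below the 10 controls on the vertical axis.

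Measures of the whole library were compared by 2-sided permutation tests, adjusted over 5 measures. After thinning each library to 1000000 counts, the SR1848 embryos had a median of 13067 detected genes (12029 to 14646) and the controls 14299 (13725 to 14979). The mean difference was -1236 ± 172 genes (SE, permutation p = 1e-05, adjusted p = 5e-05), and it was -742 against DMSO 9 and 10 alone (exact permutation p = 0.102, adjusted p = 0.454). The share of mitochondrially encoded mRNA was 4.10 to 11.7% under SR1848 and 5.34 to 9.22% in the controls (permutation p = 0.275). The entry for the B2 SINE repeat was lower by 0.59 on the log2 scale of CPM + 1 (permutation p = 0.0127, adjusted p = 0.0318). That difference was 0.00587 against DMSO 9 and 10. B2 stood at 6.97 and 6.46 CPM in DMSO 9 and 10 and ran from 7.97 to 22.0 CPM in the 8. The B1 entry differed by -0.57 (permutation p = 0.0326, adjusted p = 0.0543).

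Experiment 1 gave the same comparison in other embryos with every label used as given: 16 SR1848 against 16 DMSO, after leaving out 1 and 3 libraries with a low total or few genes. There 4454 of 11797 genes were higher (37.8%) and 5143 lower (43.6%), or 963 and 8557 with the maternal scaling. Of 9446 genes called in experiment 2 and tested in both, 8754 were called with the same sign (92.7%) and 3 with the opposite sign, and these 8754 are 92.0% of the 9513 calls of experiment 1 that were also tested in experiment 2. Across 11690 genes the log2 fold changes had r = 0.97 and rho = 0.97, as a description, since genes are not independent. Tead4 ran from 30.5 to 154 CPM in DMSO and had no count in any of the 16 SR1848 embryos. Sumo2 had medians of 555 and 1.55 CPM, Nop58 452 and 11.6 CPM, and Zbed3 2115 and 14560 CPM.

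**Figure D5:**
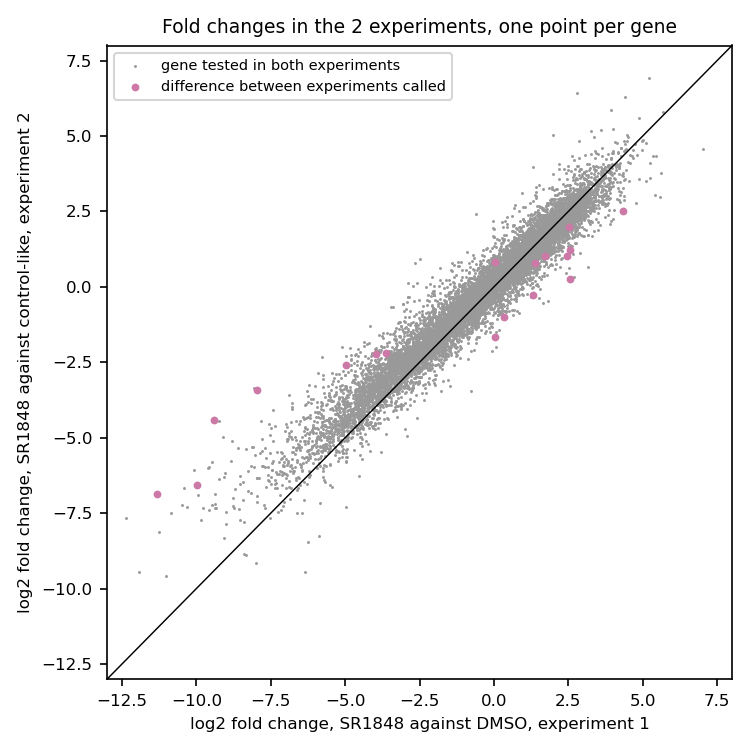
Log2 fold change of SR1848 against DMSO in experiment 1 (horizontal) and against control-like embryos in experiment 2 (vertical), 1 point per gene for 11690 genes, with the line of equality. Most genes lie along the line (r = 0.97), and the larger points are genes whose difference between experiments passed 0.05.

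The difference between experiments was tested itself, over 14508 genes, and 10 had a more positive fold change in experiment 2 (0.0689%) and 12 a less positive one (0.0827%). The unadjusted p was under 0.05 for 1686 genes, and DESeq2 called 60 and 43. Nptn, an adhesion molecule, did not pass in experiment 2 (log2 fold change 0.25 ± 0.23 SE, medians of 22.0 and 25.3 CPM) and rose in experiment 1 (2.56 ± 0.37 SE, 16.0 and 41.7 CPM). Against DMSO 9 and 10 alone Nptn did pass in experiment 2, at 1.24 ± 0.52 (SE, edgeR adjusted p = 0.0493), and over the other alternatives it ran from -1.72 to 0.39 with adjusted p from 1.47e-09 to 0.923. Rbm42, an RNA-binding protein, fell by 2.22 on the log2 scale in experiment 2 and by 3.98 in experiment 1, and Prim2, a primase subunit, had log2 fold changes of -2.18 and -3.64. Tbx4, Lrrc17, Taf12 and Lrrfip1 rose in both and less in experiment 2. Experiment and the making of the control group cannot be told apart here: with DMSO 9 and 10 alone as controls of experiment 2 the counts were 1 and 1.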

How the data were processed

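The members and gene lists were chosen with earlier results of these data known. Per the submitters' processing notes, the tools were bcl2fastq, Trim Galore 0.6.2, R 3.5.1, DESeq2 1.32.0 and, for quantification, kallisto 0.46.1. The builds named are mm10 and hg19, without a role for hg19. The authors deposited kallisto's estimated counts (expected counts, not normalised) for 119358 transcript entries, per the file headers. Of these values 26.3% are not whole (tolerance 1e-09). Column prefixes C88 and ComS were read as SR1848_NR5A2OE and SR1848 from their replicate numbers. Entries were summed by gene through GENCODE M21 (116770) or the authors' deposited identifiers (892); 1691 entries (0.557% of counts) stayed unpaired and 5 (B1, B2, GFP in 2 and an Nr5a2 sequence, 0.158%) were kept apart. Sums were rounded and tested with edgeR 4.0.16 in R 4.3.3 (quasi-likelihood, TMM, filterByExpr, Benjamini-Hochberg threshold 0.05), with each experiment's levels normalised apart. SE is the log2 fold change over the square root of F. DESeq2 1.42.0, other scalings, no filter, a replicate block and other control sets were alternatives. Low libraries of experiment 1 had under 1 in 5 of the series' median total or 1 in 2 of its median detected genes.

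Named genes are the 10 largest changes in each direction (called, mean log2 CPM of at least 5 in the higher group, the same sign against DMSO 9 and 10 and in experiment 1, no clone or pseudogene symbol), up to 3 called genes with the smallest p per list (the 2 most abundant where none was called), 5 per direction with the smallest p between experiments, the 10 most variable in the 24 (the same level and symbol filters), and Nr5a2 with GFP. Other genes, such as further list members and those with a promoter match, were named after their values were seen. Some genes that the rule names are not reported here. Permutation tests used 100000 resamples or all arrangements. The protocol has no molecular identifiers and keeps no strand, so overlapping antisense genes cannot be told apart. The fit was tested on simulated data.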

Additional observations from a re-analysis of the deposited data

Results flagged for a closer look

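In 8 of 138 values checked over the 10 control-like embryos, 1 embryo stood far from the other 9 by Dixon's criterion, and chance gives about 1 in 20. On the log2 CPM scale DMSO 9 stood high for Psmd14 (8.10, the others 6.73 to 7.44), Atp5g1 (8.71, the others 7.83 to 8.20) and Tcp1 (9.78, the others 8.79 to 9.28), and low for Tbx4 (-0.08, the others 1.66 to 3.53). DMSO 10 stood high for Dgat2 (7.08, the others 4.43 to 5.67) and Zfp280b (8.51, the others 7.92 to 8.21). SR1848_NR5A2OE 8 stood low for Elovl6 (6.20, the others 7.34 to 8.26), and SR1848_NR5A2OE 5 stood high for Polh (5.84, the others 4.98 to 5.37). All of these but Zfp280b kept non-overlapping groups in the comparison.

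The effect of SR1848 differed between experiments (edgeR interaction term, adjusted over 14508 genes, experiment 2 minus experiment 1 on the log2 scale) for 10 named genes. The fold change was more positive in experiment 2 for Gpr161 (4.39, adjusted p = 0.00916), Rbm42 (1.64, 0.0211), Polh (2.28, 0.0346), Zfp280b (0.66, 0.0465) and Prim2 (1.34, 0.0465). It was less positive for Nptn (-2.42, 0.00324), Tbx4 (-1.94, 0.00786), Taf12 (-0.70, 0.00916), Lrrc17 (-1.57, 0.0174) and Lrrfip1 (-0.68, 0.0465). Gpr161 had no count in 15 of the 16 SR1848 embryos of experiment 1, so the size of its difference rests on the prior count.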

How the results depend on the processing

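The counts of 5136 higher and 4948 lower genes held within 1.5 times under relative log expression, total counts, DESeq2, either control set alone, a fit on all libraries of the series and without each control in turn (5053 to 5117 higher, 4884 to 4932 lower). No library was under 1 in 2 of the median total. With the maternal scaling they were 972 and 9258, and 779 and 8625 against DMSO 9 and 10, and 963 and 8557 in experiment 1. Without the filter 7661 were lower, and 7232 higher and 8406 lower in experiment 1. Without DMSO 9 or 10 the counts against the other alone were 2687 to 2857 higher and 2989 to 3183 lower, with the lone embryo assumed to vary like the SR1848 group.

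The 10 and 12 genes that differed between experiments became 6 and 7 with total counts, 3 and 5 with the maternal scaling, 221 and 191 without the filter, 60 and 43 with DESeq2, 18 and 224 with the low libraries and 1 and 1 with DMSO 9 and 10 alone. The 6 higher and 1 lower genes of the 8 against DMSO 9 and 10 became 3 and 0 with the maternal scaling, 7 and 0 with total counts, 8 and 3 without the filter, 172 and 84 with DESeq2, and 3 to 7 and 0 to 1 without DMSO 9 or 10. Detected genes differed by -742 (adjusted permutation p = 0.454) and B2 by 0.00587 against DMSO 9 and 10, and B1 by -0.75 (adjusted permutation p = 0.0174) against the 8. The cause was not tested.

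Among named genes the maternal scaling turned the sign of Polr2c (-0.35), mt-Co3 (-0.97), mt-Co1 (-0.95), mt-Co2 (-1.34), Prdx2 (-0.68), Odf2 (-0.0048), Hba-a2 (-0.09), Gdf9 (-0.47), Nlrp5 (-0.79), Zfp280b (-1.12), Nptn (-1.72), Taf12 (-1.14), Lrrc17 (-0.87), Gli3 (-1.04), Bambi (-0.63), Usp17lb (-1.07) and Zfp352 (-1.22). Nptn was -0.03 with relative log expression and with DESeq2. Replicate numbers do not pair the embryos (correlations of deviations of -0.01 to 0.06 over 10 pairs, 0 over 0.1). With a replicate block 4690 genes were higher and 4918 lower, and Bambi (-0.29) and Zfp352 (-0.90) changed sign. Against DMSO 9 and 10 the block gave 3024 and 2843, and in experiment 1 4037 and 5065.

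Depth of 3762220 counts or more limits genes near 1 CPM, and 2 embryos set the spread of the labelled controls.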
